A study of Mus musculus with 9 samples.

Results

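A set of mostly inhibitory receptor genes of microglia, among them 4 Siglecs, was followed across the 3 genotypes of a mouse study of connexin 43 in an amyloid model. The members were the rows of the deposited gene table with the symbols Cd33, Cd22, Siglece, Siglec1, Sirpa, Cd200r1, Lilrb4a, Lilr4b, Havcr2 and Lag3, 10 of its 18571 genes. All 10 passed the filter on low counts. Microglia, the brain's resident macrophages, were captured from cortex and hippocampus of 9-month-old C57BL6/j mice on plates coated with an antibody to CD45, a surface protein of white blood cells as well as microglia. Poly-A RNA was then sequenced. The control mice were wild type (WT), and the amyloid model was APP/PS1, mice with human transgenes for familial Alzheimer's disease. The third genotype was APP/PS1:Cx3cr1-CreER:Cx43-flox/flox, written Cx43 cKO here, in which a tamoxifen-activated recombinase expressed from the Cx3cr1 locus removes Cx43 (encoded by Gja1). Per the labels, all 3 genotypes received tamoxifen by gavage at 8 months, at 0.1 mg/g on 5 days, and neither WT nor APP/PS1 is listed with the recombinase or the floxed allele. The Cx43 cKO mice therefore differed from APP/PS1 in the Cx3cr1-CreER allele as well as in Cx43. Each genotype had 3 libraries.

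Inhibitory receptors set the threshold at which myeloid cells and lymphocytes respond. Many carry tyrosine motifs in their tails, called ITIMs, which recruit the phosphatases SHP-1 (Ptpn6), SHP-2 (Ptpn11) and SHIP-1 (Inpp5d) and so oppose activating receptors that signal through Tyrobp or Fcer1g. Siglecs bind sialic acids, the sugars that cap glycans on host cells. Sirpa and Cd200r1 bind the proteins CD47 and CD200 on neighbouring cells. In microglia several of these receptors are known as brakes on phagocytosis and inflammatory activation, and human CD33 lies at a risk locus for Alzheimer's disease.

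Total estimated counts ran from 18907681 to 19565354 per library, and the median biological coefficient of variation, edgeR's estimate of the spread between libraries beyond counting noise, was 3.58%. The labels call the libraries repeats and do not say that they came from separate animals, so p-values measure the spread between these libraries, which may be technical. Levels are given as CPM, counts scaled to library size. The WT libraries held 31.6 to 35.1 CPM of Gja1, the APP/PS1 libraries 37.0 to 42.5 and the Cx43 cKO libraries 25.3 to 28.1. Gja1 is also an astrocyte gene, and its log2 change in Cx43 cKO against APP/PS1 (-0.56) stood beside a fall of 6 of the 7 other astrocyte markers, from -0.92 (Gjb6) to -0.27 (Slc1a3), with Gfap not called (0.08). The 8 astrocyte markers, Gja1 among them, averaged 473, 677 and 519 CPM in sum in WT, APP/PS1 and Cx43 cKO. How much of the Gja1 signal came from astrocytes was not tested. Cx3cr1, whose locus drives the recombinase, averaged 2260, 2231 and 1214 CPM in the same order of genotypes. The Y-linked gene Ddx3y averaged 208 and 237 CPM in the first 2 genotypes but 0.0522 CPM in the knockout, so genotype and the sex of the mice cannot be told apart in either comparison with Cx43 cKO. The 12 microglia markers averaged 20608, 24948 and 21649 CPM in sum in WT, APP/PS1 and Cx43 cKO, without overlap between genotypes, and ran from 20433 to 25121 CPM per library. Markers of other blood cells were present as well and moved with genotype. The 6 erythroid markers summed to 1215, 262 and 101 CPM on average in WT, APP/PS1 and Cx43 cKO. The 12 neutrophil markers summed to 3061 to 3075 CPM (WT), 926 to 943 CPM (APP/PS1) and 8913 to 9039.8 CPM (Cx43 cKO), and the 7 monocyte markers to 605 to 632, 217 to 239.5 and 916 to 932 CPM. No neutrophil or monocyte marker was at 0 in any genotype. Their part in the results that follow was not tested. In these bulk libraries, fewer cells of a type and less RNA per cell cannot be told apart.

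All 10 receptors were detected in every library, over a wide range of levels. On the deposited scale per length, TPM, Sirpa was the most abundant in WT at 970 ± 16.3 TPM (SD, n = 3). Lag3 (427 ± 23.4) and Lilrb4a (406 ± 12.5) came next, and the ranges of these neighbours overlapped. Havcr2 (293 ± 13.8) and Cd33 (269 ± 11.4) followed with ranges that met almost end to end, 282.6 TPM being the lowest Havcr2 library and 282.45 TPM the highest Cd33 library. Lilr4b (167 ± 1.22), Siglece (91.5 ± 5.07), Cd22 (23.7 ± 0.484), Siglec1 (13.3 ± 1.19) and Cd200r1 (8.40 ± 0.0666) completed the order without overlap. The order was largely kept in the other genotypes. In APP/PS1, Lilrb4a (407 ± 8.69) stood ahead of Lag3 (384 ± 22.2) with overlapping ranges, and Cd200r1 (10.7 ± 1.40) ahead of Siglec1 (6.08 ± 0.315) without overlap. In Cx43 cKO, Lilrb4a reached 759 ± 7.07 TPM, second to Sirpa at 943 ± 7.95 TPM, and Lilr4b at 229.8 ± 5.46 TPM stood ahead of both Cd33 (213 ± 7.91) and Havcr2 (210.5 ± 11.4), whose ranges overlapped. Cd200r1 (8.73 ± 0.401) stood ahead of Siglec1 (7.97 ± 0.424) there as well, with overlapping ranges.

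**Figure D1:**
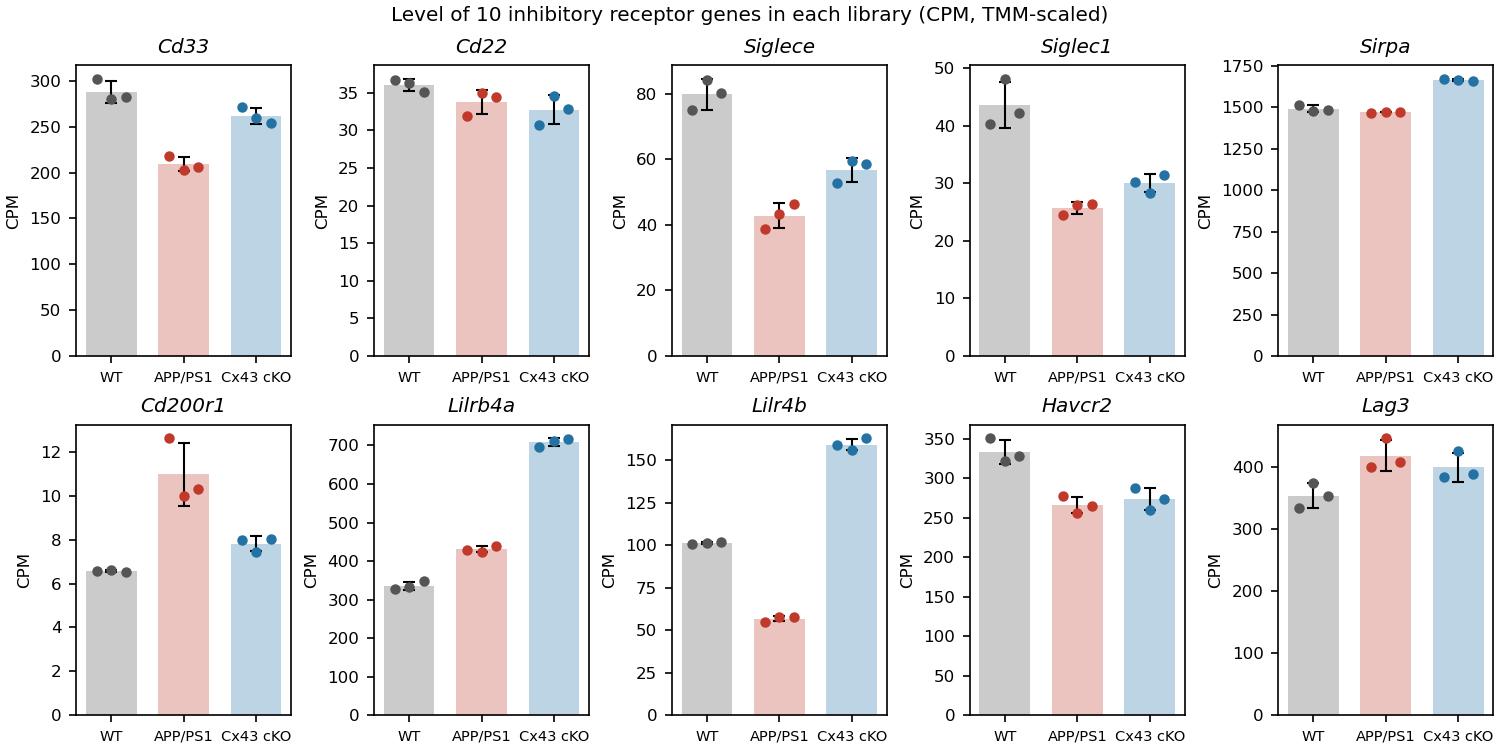
Level of each receptor gene in CPM with TMM scaling (vertical axis, from 0, a separate scale per gene) in WT, APP/PS1 and Cx43 cKO; points are libraries, bars are means and error bars are SD (n = 3). Lilr4b is lowest in APP/PS1 and highest in Cx43 cKO, Lilrb4a steps up from WT to APP/PS1 to Cx43 cKO, and Cd33, Siglece and Siglec1 are lowest in APP/PS1.

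The 3 comparisons were APP/PS1 against WT, for the effect of the amyloid model, Cx43 cKO against APP/PS1, for the added knockout, and Cx43 cKO against WT. They share libraries, so the values for each receptor stand side by side and their likeness is no separate result. In APP/PS1 against WT, 3 receptors rose (Cd200r1, Lilrb4a, Lag3), 5 fell (Cd33, Siglece, Siglec1, Lilr4b, Havcr2) and 2 did not pass the test (Cd22, Sirpa), at an adjusted p under 0.05 in the edgeR quasi-likelihood fit with TMM scaling (on TPM, Lag3, Cd22 and Sirpa fell and Lilrb4a was not called). The 8 of 10 called stand beside 59.0% of all 14696 genes tested, of which 26.9% were called higher and 32.0% lower. The median log2 change of the 10 was -0.21, beside -0.04 over all genes. With the knockout added, in Cx43 cKO against APP/PS1, 6 rose (Cd33, Siglece, Siglec1, Sirpa, Lilrb4a, Lilr4b), 1 fell (Cd200r1) and 3 did not pass (Cd22, Havcr2, Lag3), beside 55.0% of all genes called, 27.3% higher and 27.7% lower. The median log2 change was 0.20, beside -0.01. Between Cx43 cKO and WT, 4 rose (Lilrb4a, Lilr4b and, with TMM scaling but not on TPM, Sirpa and Lag3), 5 fell (Cd33, Cd22, Siglece, Siglec1, Havcr2) and Cd200r1 did not pass, beside 47.7% of all genes called, 24.7% higher and 23.0% lower, with medians of 0.01 and -0.01. The groups did not overlap in 10, 7 and 10 of the receptors, where 63.5%, 59.7% and 54.6% of all genes did not overlap. With so many genes called, a call by itself says little about this family. The sizes and the directions differed from receptor to receptor.

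**Figure D2:**
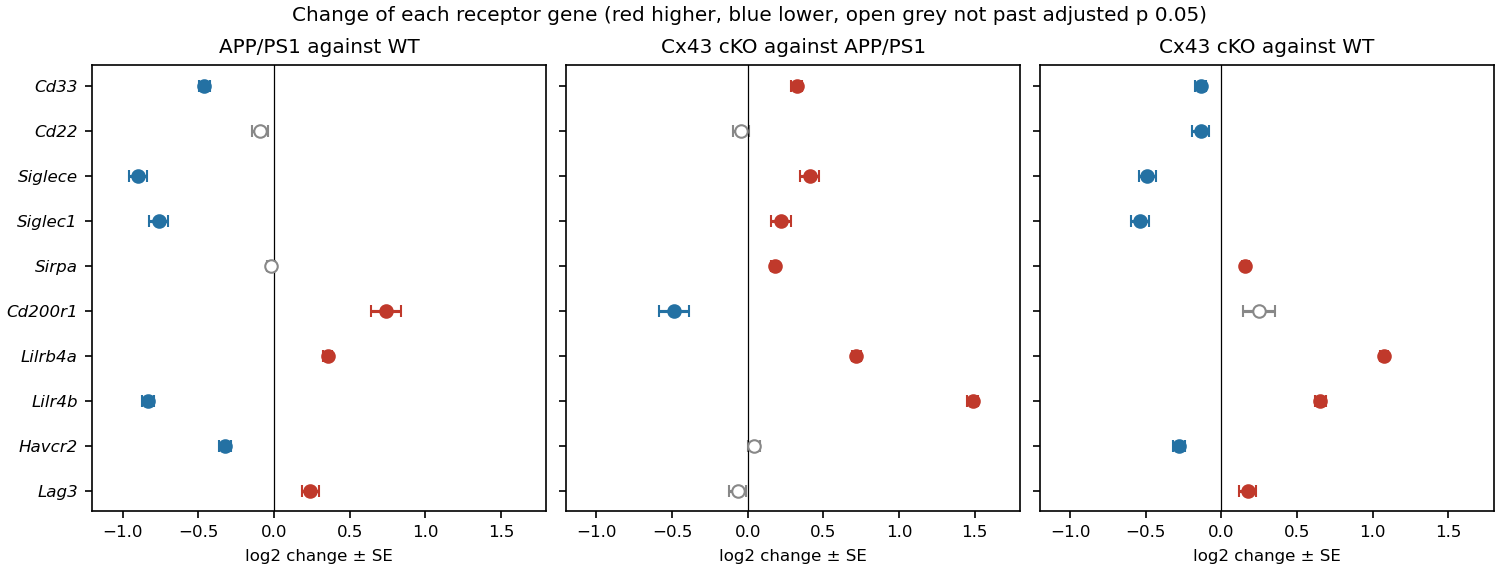
Log2 change of each receptor (horizontal axis, first group minus second, error bars SE from the edgeR fit) in the 3 comparisons, with red for higher, blue for lower and open grey for not past an adjusted p of 0.05. Lilr4b has the lowest value but one in APP/PS1 against WT (-0.83) and the highest in Cx43 cKO against APP/PS1 (1.49), and Cd200r1 has the opposite signs (0.74 and -0.49).

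Cd33 and Siglece, a pair of Siglecs of myeloid cells encoded 111458 bases apart on chromosome 7 with 3 genes between them (GRCm38.p6, chr7:43527399-43537424 and chr7:43648882-43672044, both on the minus strand), were lower in APP/PS1 than in WT and partly higher again in Cx43 cKO. Siglece carries an ITIM and restrains phagocytosis and the oxidative burst. Siglece was at 74.8, 84.2 and 80.1 CPM in the WT libraries, 38.8, 43.2 and 46.3 CPM in APP/PS1 and 52.6, 59.4 and 58.4 CPM in Cx43 cKO. All WT libraries stood above all Cx43 cKO libraries, and these above all APP/PS1 libraries. Siglece fell by 46.3% in APP/PS1 against WT (log2 change -0.90, SE 0.061, edgeR adjusted p 3.44e-10). It rose 1.33-fold in Cx43 cKO against APP/PS1 (0.41, SE 0.064, adjusted p 2.73e-05) and remained below WT (-0.49, adjusted p 1.4e-06). Cd33 was at 302, 280.3 and 282 CPM (WT), 218, 203 and 207 CPM (APP/PS1) and 272, 259.6 and 254 CPM (Cx43 cKO). The order of the genotypes was that of Siglece, again without overlap, and the library numbered 1 was the highest in each genotype. Cd33 fell by 27.3% in APP/PS1 (-0.46, SE 0.036, edgeR adjusted p 1.7e-11) and rose 1.25-fold in Cx43 cKO against APP/PS1 (0.32, SE 0.036, adjusted p 1.96e-08). The ratio of Cd33 to Siglece CPM was 3.63 ± 0.365 (WT), 4.93 ± 0.612 (APP/PS1) and 4.63 ± 0.463 (Cx43 cKO; SD, n = 3). It was higher in each APP/PS1 library than in any WT library (two-sided exact permutation p 0.1, the smallest that 3 against 3 can give), so the 2 neighbours did not fall in proportion. The summed neutrophil and monocyte markers were also lowest in APP/PS1, and Elane (91.9, 1.24 and 53.2 CPM in WT, APP/PS1 and Cx43 cKO), Mpo, Vcan and Fn1 among them had the genotype order of Cd33 and Siglece. Their part was not tested.

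RefSeq promoter entries (GRCm38.p6) existed for 5 of the 10 receptors, Cd33, Cd22, Siglece, Lilr4b and Havcr2. The 250 bases before the RefSeq start are shown for Siglece and Havcr2, which both fell in APP/PS1, and for Lilr4b, which had the largest change of the 10 in Cx43 cKO against APP/PS1. For Siglece, Cd33 and Cd22 this start lies inside the annotated extent of the gene, so these windows do not lie before its outermost annotated start. Capitals mark matches to the core GAGGAA of PU.1, the lineage factor of microglia (TTCCTC where it lies on the other strand), to the AP-1 motif TGANTCA and to TATAAA.
Siglece, chr7:43660162-43660411, minus strand: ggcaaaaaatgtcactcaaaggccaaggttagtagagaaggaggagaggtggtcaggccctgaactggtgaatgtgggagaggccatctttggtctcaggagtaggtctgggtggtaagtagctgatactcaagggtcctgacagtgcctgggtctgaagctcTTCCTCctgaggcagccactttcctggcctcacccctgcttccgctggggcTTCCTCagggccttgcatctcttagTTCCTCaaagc
Havcr2, chr11:46454681-46454930, plus strand: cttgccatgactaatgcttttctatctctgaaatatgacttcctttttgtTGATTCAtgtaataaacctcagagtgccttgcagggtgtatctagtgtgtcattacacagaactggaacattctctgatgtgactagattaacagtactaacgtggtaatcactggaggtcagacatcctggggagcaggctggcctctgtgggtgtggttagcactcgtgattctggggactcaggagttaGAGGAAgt
Lilr4b, chr10:51480362-51480611, plus strand: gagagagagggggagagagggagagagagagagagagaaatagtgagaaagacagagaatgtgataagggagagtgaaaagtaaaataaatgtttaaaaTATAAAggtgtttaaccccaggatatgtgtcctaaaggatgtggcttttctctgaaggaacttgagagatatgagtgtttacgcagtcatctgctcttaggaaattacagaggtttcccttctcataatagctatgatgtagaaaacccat
The PU.1 core, searched on both strands, was found 3 times in the Siglece window, once in Havcr2 and once in Cd33, so in 3 of the 5 entries, beside 23.3% of the 32851 listed promoters. The AP-1 motif was found in Havcr2 alone of the 5 (6.75% of all promoters) and TATAAA in Lilr4b alone (12.4%). The interferon response element (GAAA, any 2 bases, GAAA) was found in none of the 5 (2.98%). None of these motifs overlapped another. A match describes the letters of the window and does not show that a factor binds there.

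Siglec1 (sialoadhesin, chr2:131067801-131086778), a Siglec without an ITIM that macrophages at the borders of the brain and in lymphoid tissue use to bind sialylated cells, fell most after Siglece among the 4 Siglec members in APP/PS1. It was at 40.3, 48.1 and 42.3 CPM (WT), 24.5, 26.2 and 26.4 CPM (APP/PS1) and 30.2, 28.3 and 31.4 CPM (Cx43 cKO). The genotypes did not overlap. Siglec1 fell by 41.0% in APP/PS1 against WT (log2 change -0.76, SE 0.062, edgeR adjusted p 7.15e-11) and by 31.2% in Cx43 cKO against WT (-0.54, adjusted p 3.77e-08). Its rise in Cx43 cKO against APP/PS1 (0.22, SE 0.067, adjusted p 0.0064) was lost with offsets for GC content and transcript length (0.11, adjusted p 0.122; 0.00165 to 0.122 over 23 alternatives). The 8 markers of border macrophages, none at 0, summed to 546 to 558 CPM (WT), 419 to 432 CPM (APP/PS1) and 356 to 373 CPM (Cx43 cKO). The sum rests mostly on Mrc1, F13a1 and Cd163, which fell in APP/PS1, whereas Ms4a7 (log2 change 1.22), Folr2 (0.65) and Pf4 (0.59) rose, so a ratio to the sum depends on the markers that dominate it. Per 100 CPM of these markers, Siglec1 was at 7.90 ± 0.810 (WT), 6.05 ± 0.328 (APP/PS1) and 8.22 ± 0.569 (Cx43 cKO; SD, n = 3). The ratio was thus lower in APP/PS1 than in either other genotype without overlap (exact permutation p 0.1, the smallest possible), while WT and Cx43 cKO overlapped. The part of border macrophages in the change was not tested.

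Cd22 (chr7:30865404-30880342), the inhibitory Siglec of B cells, which is also found on microglia, had the smallest changes of the 4 in both comparisons with APP/PS1. It was at 36.6, 36.3 and 35.2 CPM (WT), 32.0, 34.9 and 34.4 CPM (APP/PS1) and 30.7, 34.6 and 32.9 CPM (Cx43 cKO). WT was above the others by little, and APP/PS1 and Cx43 cKO overlapped. From WT to APP/PS1 the log2 change was -0.09 (SE 0.054, edgeR adjusted p 0.139; 1.6e-05 to 0.472 over 23 alternatives). Cd22 was called lower there in 4 of them, with library totals (-0.23, adjusted p 0.000466), on log2 FPKM with either pseudocount (-0.20 and -0.21) and on TPM (-0.45, adjusted p 1.6e-05). From APP/PS1 to Cx43 cKO it was -0.04 (SE 0.055, adjusted p 0.518), but on TPM it was positive and called (0.15, adjusted p 0.0354). Cx43 cKO was lower than WT (-0.14, SE 0.054, adjusted p 0.0366), a call lost with DESeq2 size factors (adjusted p 0.0853), with the DESeq2 Wald test (0.275) and on leaving out 1 of 4 libraries (WT 1 or 2, Cx43 cKO 1 or 3), with an adjusted p of 0.000366 to 0.275 over all 23 alternatives. The B cell markers in the table, 6 of 8 listed and none at 0, summed to 44.6 to 47.8 CPM (WT), 19.8 to 21.8 CPM (APP/PS1) and 28.7 to 30.2 CPM (Cx43 cKO). The part of B cells in the level of Cd22 was not tested. Of the 5042 exon bases of Cd22, 479 overlap the antisense gene Gm29439, and the sources used here do not say whether counting used strand.

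Of the other Siglecs, 4 of 5 listed were tested and all 4 passed the test in APP/PS1 against WT, 2 higher and 2 lower (Siglec15 had too few counts), beside 59.0% of all genes. Siglecf, known from eosinophils and activated microglia, averaged 24.2, 42.8 and 43.3 CPM in WT, APP/PS1 and Cx43 cKO, a rise in APP/PS1 (log2 change 0.83, edgeR adjusted p 1.34e-12) that was also present in Cx43 cKO against WT (0.84, adjusted p 1.43e-12). Siglech, an activating partner of Tyrobp and a microglia marker, averaged 839, 1069 and 993 CPM and rose by 0.35 in APP/PS1 (adjusted p 1.77e-10). Siglecg, the ITIM Siglec of B cells, averaged 9.12, 3.44 and 5.49 CPM and fell by 1.40 (adjusted p 1.42e-10). Mag, the Siglec of myelin, fell by 0.12 (adjusted p 0.00736), but the sign turned with GC and length offsets, where it was higher by 0.05 and not called (adjusted p 0.192). The myeloid Siglecs therefore moved in both directions in APP/PS1, with Cd33, Siglece and Siglec1 lower and Siglecf and Siglech higher.

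Sirpa (chr2:129591042-129632228), the receptor for the CD47 signal that protects cells from phagocytosis, was at 1516, 1477 and 1484 CPM (WT), 1469.5, 1473 and 1473 CPM (APP/PS1) and 1671, 1665 and 1662 CPM (Cx43 cKO). The difference between WT and APP/PS1 was not called (log2 change -0.02, SE 0.024, edgeR adjusted p 0.504; 3.96e-08 to 0.994 over 23 alternatives), and Cx43 cKO stood above both. In APP/PS1 against WT, Sirpa was called lower in 4 of the alternatives that use no replicate block, with library totals (-0.16, adjusted p 2.91e-06), on log2 FPKM with either pseudocount (-0.16, adjusted p 0.000104 and 0.000106) and on TPM (-0.41, adjusted p 3.96e-08). In Cx43 cKO it rose by 13.2% against APP/PS1 (0.18, SE 0.024, adjusted p 6.47e-07) and by 11.6% against WT (0.16, adjusted p 5.08e-06), and the latter call was lost with library totals (0.05, adjusted p 0.0792), on log2 FPKM with either pseudocount (0.05) and on TPM (-0.04), with an adjusted p of 4.1e-30 to 0.129 over 23 alternatives. Its ligand Cd47 averaged 52.0, 54.5 and 67.2 CPM and also rose in Cx43 cKO, by 0.30 against APP/PS1 (adjusted p 6.22e-06) and 0.37 against WT (adjusted p 3.24e-07), with no call between APP/PS1 and WT (0.07, adjusted p 0.242).

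Cd200r1 (chr16:44765736-44794977), the receptor for neuronal CD200 and the least abundant of the 10 on TPM in WT, moved against most of the others. It was at 6.59, 6.60 and 6.51 CPM (WT), 12.6, 10.01 and 10.3 CPM (APP/PS1) and 8.00, 7.43 and 8.02 CPM (Cx43 cKO), or 132 to 231 estimated counts per library. The APP/PS1 libraries were the highest, with library 1 above the other two, and the WT libraries the lowest. Cd200r1 rose 1.67-fold in APP/PS1 (log2 change 0.74, SE 0.099, edgeR adjusted p 4.28e-07) and fell by 28.7% in Cx43 cKO against APP/PS1 (-0.49, SE 0.098, adjusted p 0.000127). Cx43 cKO against WT missed the threshold (0.25, SE 0.105, adjusted p 0.0514; 0.0147 to 0.612 over 23 alternatives, with 6 of them past it). Cd200, its ligand, averaged 23.2, 20.5 and 14.4 CPM and fell in Cx43 cKO (-0.52 against APP/PS1, adjusted p 4.04e-07). Cd200r4, an activating relative with which Cd200r1 shares 40 of its 1843 50-base sequences, averaged 2.60, 21.8 and 13.5 CPM and rose by 3.06 in APP/PS1 (adjusted p 3.87e-19).

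With TMM scaling, the paralogs Lilrb4a and Lilr4b gave the largest changes of the 10 in both comparisons with Cx43 cKO, and in APP/PS1 against WT they moved in opposite directions. On mean TPM, Siglece (91.5 to 56.3), Siglec1 (13.3 to 7.97) and Havcr2 (293 to 210) changed by a larger factor from WT to Cx43 cKO than Lilr4b (167 to 230). Lilrb4a (gp49B) carries ITIMs and binds extracellular ligands that include integrins, whereas Lilr4b (gp49A) lacks them. They lie side by side on the plus strand, 4569 bases apart with no RefSeq gene wholly between them (Lilr4b at chr10:51480612-51486329 and Lilrb4a at chr10:51490898-51496613). Lilrb4a was at 328, 332 and 348 CPM (WT), 428, 425 and 439 CPM (APP/PS1) and 697, 712 and 716 CPM (Cx43 cKO). Lilr4b was at 101, 101 and 102 CPM (WT), 55.0, 57.5 and 57.9 CPM (APP/PS1) and 159, 156 and 163 CPM (Cx43 cKO). The libraries of a genotype differed by far less than the genotypes in both genes. In APP/PS1 against WT, Lilrb4a rose 1.28-fold (log2 change 0.36, SE 0.029, edgeR adjusted p 6.02e-11), although its change was 0.00 on TPM (adjusted p 0.887; 1.9e-31 to 0.887 over 23 alternatives). Lilr4b fell by 43.9% (-0.83, SE 0.038, adjusted p 2.12e-16). Against APP/PS1, both rose in Cx43 cKO, Lilrb4a 1.65-fold (0.72, SE 0.029, adjusted p 1.79e-17) and Lilr4b 2.80-fold (1.49, SE 0.037, adjusted p 3.67e-22). Against WT the order was turned, with Lilrb4a 2.11-fold higher (1.07, adjusted p 4.77e-21) and Lilr4b 1.57-fold higher (0.65, adjusted p 7.56e-15).

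The ratio of Lilrb4a to Lilr4b CPM was 3.32 ± 0.0875 (WT), 7.58 ± 0.195 (APP/PS1) and 4.45 ± 0.0982 (Cx43 cKO; SD, n = 3). No genotypes overlapped in this ratio, which does not depend on how libraries are scaled (exact permutation p 0.1 in each comparison, the smallest possible). The sum of both genes was 437 ± 11.2, 487 ± 8.32 and 868 ± 11.8 CPM. The summed neutrophil and monocyte markers followed the order of Lilr4b, lowest in APP/PS1 and highest in Cx43 cKO, although Elane and Mpo among the former and Vcan and Fn1 among the latter were highest in WT. The summed neutrophil markers differed 9.59-fold between APP/PS1 and Cx43 cKO. All 12 neutrophil and all 7 monocyte markers fell in APP/PS1, where Lilrb4a rose with TMM scaling, and their part in the changes of either gene was not tested.

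**Figure D3:**
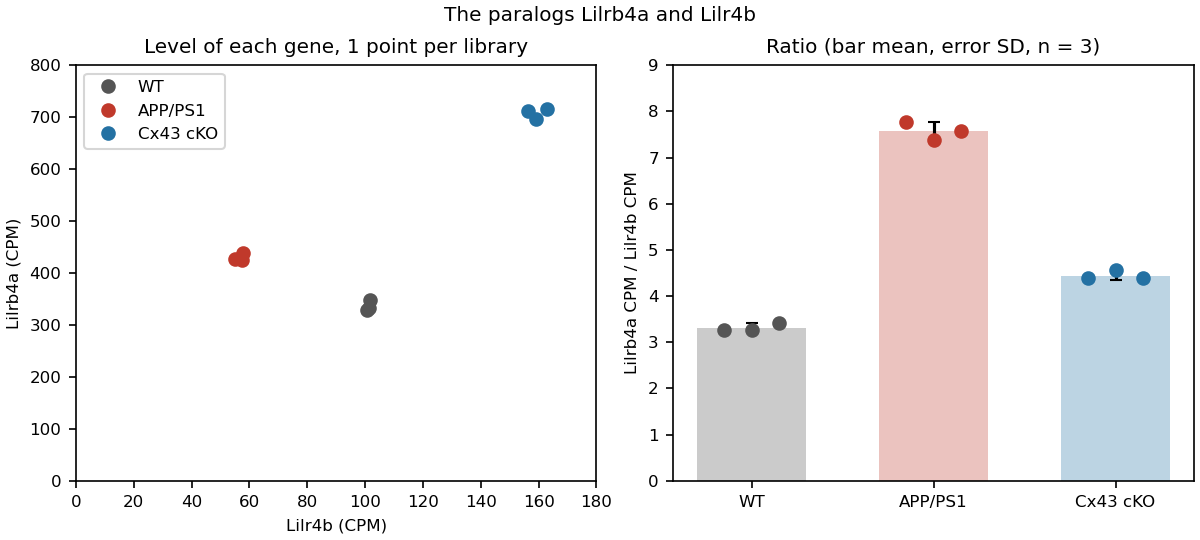
Left, Lilrb4a against Lilr4b in CPM, 1 point per library; right, the ratio of both in each library, with bars for the mean and error bars for SD (n = 3). The 3 genotypes form separate groups, with the APP/PS1 libraries at ratios of 7.38 to 7.77 and the WT libraries at 3.26 to 3.42.

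How far 50-base reads can tell this pair apart differs along the gene. Of 907 aligned coding bases 871 (96.0%) are identical, with a longest identical run of 126 bases. The most different and the least different stretch of 90 coding bases are shown because a read from the first differs between the 2 paralogs and a read from the second does not. Capitals mark the bases that differ.
Lilrb4a, coding bases 212 to 301, chr10:51491575-51491664, plus strand: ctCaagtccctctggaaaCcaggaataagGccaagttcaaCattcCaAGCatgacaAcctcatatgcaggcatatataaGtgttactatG
Lilr4b, coding bases 212 to 301, chr10:51481281-51481370, plus strand: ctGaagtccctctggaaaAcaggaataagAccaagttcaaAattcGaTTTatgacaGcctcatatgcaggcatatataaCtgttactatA
Lilrb4a and Lilr4b, coding bases 302 to 391 across an exon junction: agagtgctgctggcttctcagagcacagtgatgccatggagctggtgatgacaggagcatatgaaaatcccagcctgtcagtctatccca
The first stretch holds 11 differences and the second none. Over whole coding transcripts, 441 sequences of 50 bases are common to both, 28.4% of the 1554 of Lilrb4a and 24.1% of the 1831 of Lilr4b, and how the counting divided such reads is not given in the sources used here. The annotation also holds Gm49339, a gene on the same strand that covers 1846 of the 5227 exon bases of Lilrb4a and 122 of the 5439 of Lilr4b. Of the 50-base sequences of Lilrb4a, 1437 (92.5%) also occur in Gm49339, and 94.5% occur in some other gene, as do 25.5% of those of Lilr4b. Whether the annotation used for counting held Gm49339 is not given in the sources used here. If it did, few reads could be assigned to Lilrb4a alone. The level of each gene of the pair is therefore uncertain. The other receptors shared at most 8.04% of their 50-base sequences with other genes (Cd22).

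Havcr2 (TIM-3, chr11:46454931-46481255) is a receptor for phosphatidylserine and galectin-9, and Lag3 (chr6:124904359-124912434) is a receptor for MHC class II. Both are checkpoint receptors, known from exhausted T cells, that resting microglia also express. Havcr2 was at 350.5, 322 and 328 CPM (WT), 277, 256 and 265 CPM (APP/PS1) and 288, 260.1 and 274 CPM (Cx43 cKO). WT stood above both other genotypes, which overlapped. Havcr2 fell by 20.2% in APP/PS1 (log2 change -0.32, SE 0.040, edgeR adjusted p 5.07e-07) and by 17.8% in Cx43 cKO against WT (-0.28, adjusted p 4.98e-06), with 0.04 (SE 0.040, adjusted p 0.389) between APP/PS1 and Cx43 cKO. On TPM this last difference was called (0.24, adjusted p 0.00122; 0.00122 to 0.914 over 23 alternatives). Its ligand Lgals9 averaged 171, 179.9 and 189 CPM and was called in Cx43 cKO against WT (0.15, adjusted p 0.000513). Lag3 was at 335, 375 and 353 CPM (WT), 399.8, 446 and 408 CPM (APP/PS1) and 383, 426 and 389 CPM (Cx43 cKO). The WT libraries lay below the rest, and library 2 was the highest in each genotype. Lag3 rose by 18.1% in APP/PS1 with TMM scaling (0.24, SE 0.056, adjusted p 0.00373), a call lost with library totals (0.10, adjusted p 0.122), and it fell on TPM (-0.15, adjusted p 0.0224; 5.27e-20 to 0.122 over 23 alternatives). Its rise in Cx43 cKO against WT (0.17, adjusted p 0.0265) was lost in 8 of 23 alternatives (1.31e-13 to 0.718), among them the fits without WT library 1 or 3 or without Cx43 cKO library 2 (adjusted p 0.0659, 0.0643 and 0.0545), and had the opposite sign on TPM (-0.02). Between Cx43 cKO and APP/PS1 the Lag3 difference was not called (-0.07, SE 0.056, adjusted p 0.35; 2.95e-06 to 0.768 over 23 alternatives), but of those that use no replicate block, 1 called it lower, with GC and length offsets (-0.10, adjusted p 0.00701), and on TPM it was 0.13 (adjusted p 0.0564). The T and NK cell markers in the table, 8 of 10 listed and none at 0, summed to 39.3 to 40.1 CPM (WT), 59.8 to 60.8 CPM (APP/PS1) and 43.4 to 45.5 CPM (Cx43 cKO), the order of Lag3. Cd4, Nkg7, Cd3e and Ncr1 among them did not have this order, and their part was not tested.

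A list of 25 other receptors tested held mostly inhibitory ones, together with Cd200r4 and Cd200r3, the activating relatives of Cd200r1. Of the 25, 12 rose (Cd200r4 among them) and 9 fell (Cd200r3 among them) in APP/PS1 against WT (median log2 change 0.26, all genes -0.04), beside 26.9% and 32.0% of all genes. In Cx43 cKO against APP/PS1, 13 of this list rose, Cd200r3 included, and 10 fell, Cd200r4 included, beside 27.3% and 27.7%. Pdcd1, which encodes the checkpoint receptor PD-1, averaged 4.82, 25.9 and 30.1 CPM in WT, APP/PS1 and Cx43 cKO and rose by 2.42 on the log2 scale in APP/PS1 (edgeR adjusted p 1.17e-18). Milr1, an ITIM receptor first known from mast cells, rose by 1.71 in APP/PS1 (adjusted p 2.62e-18). Pirb, the ITIM receptor related to Lilrb4a, averaged 84.4, 32.1 and 115 CPM and so had the genotype order of Lilr4b (-1.40 in APP/PS1, adjusted p 1.22e-16, and 1.84 in Cx43 cKO against APP/PS1, adjusted p 3.52e-19). Cd300lf, a phospholipid receptor of myeloid cells, averaged 32.0, 17.5 and 87.0 CPM with the same order (2.31 in Cx43 cKO against APP/PS1, adjusted p 3.15e-23), the order of the summed neutrophil markers as well. Ctla4, a T cell checkpoint, rose by 1.53 (adjusted p 1.21e-14) and Klrb1b, a receptor of NK cells, fell by 1.27 (adjusted p 7.3e-11) in that comparison.

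The enzymes and adaptors below the receptors were lower in APP/PS1 in 9 of 11 cases and higher in none, beside 32.0% and 26.9% of all genes (median log2 change -0.19, all genes -0.04), although the DESeq2 Wald test called 5 lower. Dok3, an adaptor of inhibitory signalling in myeloid cells, averaged 44.8, 23.0 and 47.7 CPM, falling by 0.96 in APP/PS1 (edgeR adjusted p 1.65e-10) and rising by 1.05 in Cx43 cKO against APP/PS1 (adjusted p 4.65e-11). Socs3, a feedback inhibitor of cytokine signalling, fell by 0.61 in APP/PS1 (adjusted p 1.98e-11). Of the phosphatases, Inpp5d fell by 0.20 in APP/PS1 (adjusted p 3.39e-06). Ptpn6 was not called in APP/PS1 (0.02, adjusted p 0.562) and rose by 0.25 in Cx43 cKO against APP/PS1 (adjusted p 1.19e-07).

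The activating partners split in APP/PS1, with 4 of 11 higher and 7 lower, beside 26.9% and 32.0% of all genes. The adaptors and receptor of the activating side rose, Tyrobp by 2.01 (edgeR adjusted p 4.05e-10), Trem2 by 1.53 (adjusted p 5.68e-22) and Fcer1g by 1.43 (adjusted p 2.51e-22). Tyrobp averaged 483, 1943 and 1070 CPM. The kinases Syk (-0.51, adjusted p 1.6e-13) and Fgr (-0.85, adjusted p 3.64e-12) fell, whereas the kinase Fyn rose (0.49, adjusted p 7.48e-09). With the knockout, against APP/PS1, 8 of the 11 rose and 3 fell, beside 27.3% and 27.7% of all genes. Tyrobp fell by 0.86 (adjusted p 3.7e-07) and Fcer1g fell by 0.91 (adjusted p 3.11e-18), while Fgr, a kinase of neutrophils and monocytes, rose by 2.09 (adjusted p 1.1e-21).

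Of 20 ligands and sialic acid enzymes tested, 8 rose and 6 fell in APP/PS1, and 10 rose and 4 fell in Cx43 cKO against APP/PS1 (median log2 change 0.20, all genes -0.01), so that 14 were called in each, beside 59.0% and 55.0% of all genes. The 8 that rose in APP/PS1 became 3 with library totals and 1 on TPM. Cd24a, a sialylated ligand of Siglecg that blood granulocytes and lymphocytes carry, had the widest swing, at 61.3, 14.0 and 111 CPM in WT, APP/PS1 and Cx43 cKO (-2.13, edgeR adjusted p 1.07e-21, and 2.99, adjusted p 1.48e-25). Cd52, a sialylated surface protein of leukocytes, averaged 55.5, 229.6 and 143 CPM, rising by 2.05 in APP/PS1 (adjusted p 3.46e-19) and falling by 0.68 in Cx43 cKO against APP/PS1 (adjusted p 1.79e-11). The sialyltransferase St3gal1 fell by 0.62 in APP/PS1 (adjusted p 2.57e-09) and rose by 0.70 in Cx43 cKO (adjusted p 3.68e-10). The neutrophil markers moved the same way as Cd24a and St3gal1 in both comparisons, all 12 called lower and then all 12 higher, and their part was not tested.

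**Figure D4:**
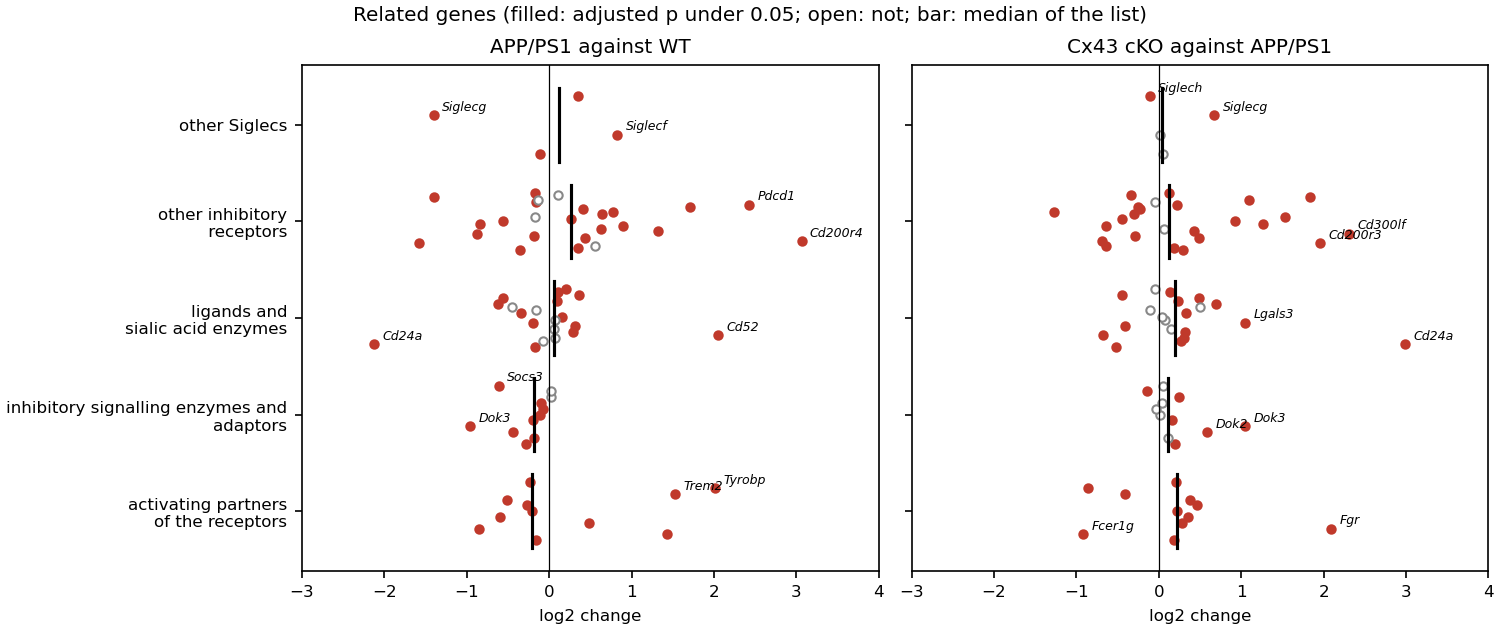
Log2 change (horizontal axis) of the genes of 5 related lists in APP/PS1 against WT and in Cx43 cKO against APP/PS1; filled points passed an adjusted p of 0.05 in the edgeR fit, open points did not, bars are list medians and the labelled genes have the largest changes of their list. Cd24a is at -2.13 on the left and 2.99 on the right, and Tyrobp and Trem2 stand above 1.5 on the left.

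The genes whose profile over the 9 libraries was nearest to each receptor, by the root mean square difference of centred log2 CPM among 13584 genes, were Ago2 (0.0419) for Cd33, Pdcd11 (0.0307) for Cd22, Ypel4 (0.0534) for Siglece and Relt (0.0499) for Siglec1. For Sirpa it was Copa (0.0207), for Cd200r1 Zfp560 (0.0607), for Lilrb4a Galns (0.0624), for Lilr4b Gadd45a (0.0429), for Havcr2 C9orf72 (0.0287) and for Lag3 Itpripl1 (0.0286). The second nearest were Ano6 for Cd33, Fkbp4 for Cd22, Klf2 for Siglec1, Ppm1a for Sirpa, Gtf2b for Cd200r1, Galc for Lilrb4a, Iqgap1 for Lilr4b, Tnfrsf14 for Havcr2 and Tmem222 for Lag3. Among the receptors themselves the nearest pairs were Siglece with Siglec1 (0.112) and Cd33 with Havcr2 (0.118), whereas the paralogs Lilrb4a and Lilr4b lay 0.491 apart. Ypel4 averaged only 1.25 CPM, little above the minimum of 1 CPM for this search. The profiles rest on 3 genotypes and share the libraries.

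By genotype, 4 receptors had the order WT, Cx43 cKO, APP/PS1 from high to low (Cd33, Siglece, Siglec1, Havcr2), although Havcr2 was not called between the last pair. Sirpa and Lilr4b had the order Cx43 cKO, WT, APP/PS1, with no call for Sirpa between WT and APP/PS1. Cd200r1 and Lag3 had the order APP/PS1, Cx43 cKO, WT, in CPM with TMM scaling. Lilrb4a alone had the order Cx43 cKO, APP/PS1, WT, and Cd22 the order WT, APP/PS1, Cx43 cKO with only WT and Cx43 cKO called apart. Some of these orders depended on the measure. On TPM, where the median of all genes in APP/PS1 against WT lay at -0.35, Lag3, Sirpa and Cd22 turned sign in some comparisons. With library totals, where it lay at -0.17, no receptor turned sign with a call on either side. The cause was not tested. The directions of Cd33, Siglece, Siglec1, Lilr4b and Havcr2 in APP/PS1 against WT, and of Lilrb4a and Lilr4b in both comparisons with Cx43 cKO, were the same in all 23 alternatives.

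**Figure D5:**
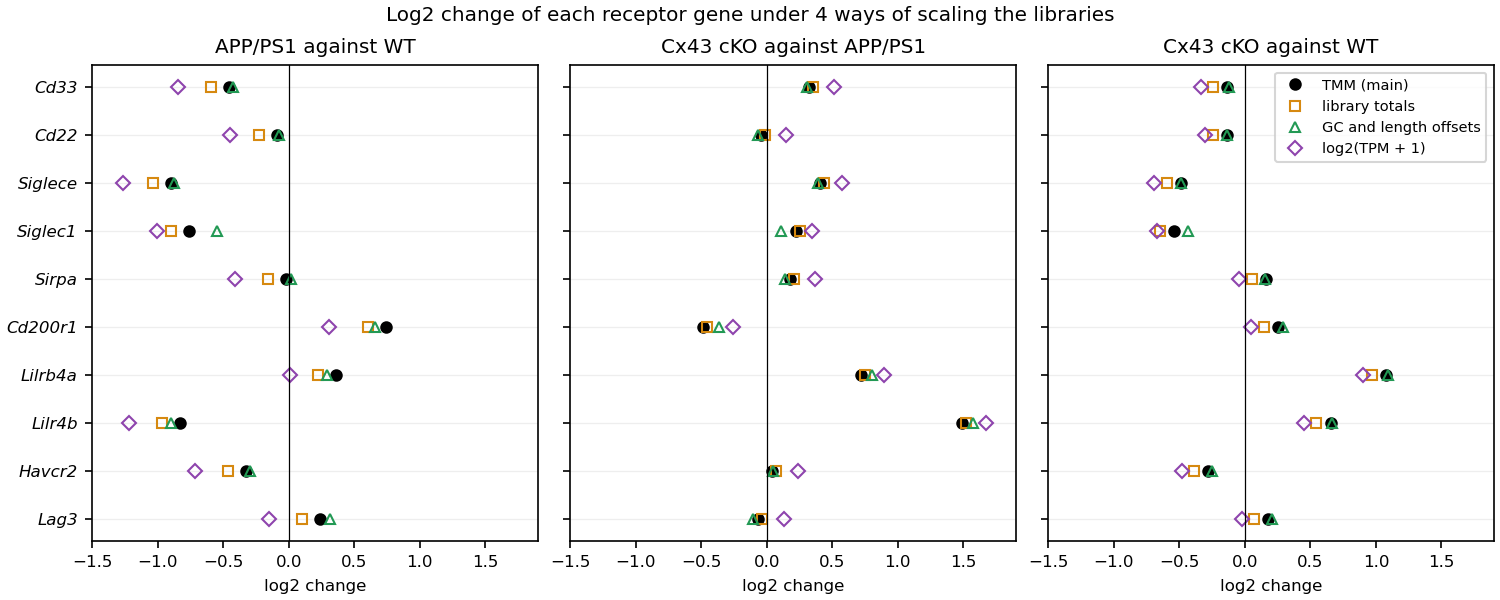
Log2 change of each receptor (horizontal axis) with TMM scaling, library totals, offsets for GC content and length, and limma-trend on log2(TPM + 1) in the 3 comparisons. On TPM the points of APP/PS1 against WT lie further left, Lilrb4a reaches 0.00 and Lag3 turns to -0.15, while Lilr4b in Cx43 cKO against APP/PS1 runs from 1.49 to 1.67 among the 4 scalings shown.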

How the data were processed

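Per the labels' protocols, poly-A libraries were read from 1 end for 50 nt (DNBSEQ). The submitters' processing notes name HISAT, Bowtie2, DESeq2 and the build GRCm38.p6, without roles or versions. The counting program is not given in the sources used here. Per the file headers, the deposited table holds an estimated count, FPKM, TPM and a normalised count for each library. The normalised count as deposited is a signal, the rounded-up estimated count times 1 factor per library, and was not used in tests.

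Estimated counts were rounded and tested with edgeR 4.0.16 (R 4.3.3, quasi-likelihood, TMM, filterByExpr, robust, all 9 libraries in 1 fit, a mean per genotype), with Benjamini-Hochberg adjustment over 14696 genes and a threshold of 0.05. CPM used TMM-scaled totals. Sums and ratios had two-sided exact permutation tests. In simulated data with 200 of 14567 genes changed (APP/PS1 against WT), 78% of 1.3-fold and 97% of 2-fold changes were recovered, with 6.91% false calls.

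The members and the gene lists were chosen with earlier results of these data known. Named were all members, in each list up to 4 genes past the threshold with the largest change (genes averaging under 1 CPM were passed over), ligands, partners and paralogs of members, and the nearest 2 profiles. A few genes named by this rule are left out and were not replaced. Alternatives were DESeq2 size factors, library totals, DESeq2 1.42.0, limma-voom (limma 3.58.1), both low-count filters, only the groups compared, the replicate number as a block, GC and length offsets with and without it (10 bins each), log2(FPKM + 1), log2(FPKM + 0.1), log2(TPM + 1), an adjusted p of 0.01, and leaving out each library. Sequences and positions came from the GRCm38 annotation and RefSeq tables, and 18517 gene identifiers matched RefSeq. Coding alignment used Biopython 1.88.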

Additional observations from a re-analysis of the deposited data

How the results depend on the processing

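The number of receptors called was the same on leaving out any library in APP/PS1 against WT (8 to 8, with 3 to 3 higher and 5 to 5 lower) and in Cx43 cKO against APP/PS1 (7 to 7, with 6 to 6 higher and 1 to 1 lower), and ran from 7 to 10 in Cx43 cKO against WT (3 to 5 higher, 4 to 5 lower). On log2(TPM + 1), where the median of all genes shifted by -0.35, 1 receptor was called higher and 8 lower in APP/PS1 against WT, in place of 3 and 5. In Cx43 cKO against WT, 2 rather than 4 were called higher with library totals, log2(FPKM + 1), log2(FPKM + 0.1) and log2(TPM + 1). In Cx43 cKO against APP/PS1, 2 rather than 1 were called lower with the GC and length offsets, which also lost the rise of Siglec1 (0.11, edgeR adjusted p 0.122). In the same comparison, limma-trend on TPM also called Cd22 (0.15, adjusted p 0.0354) and Havcr2 (0.24, adjusted p 0.00122) higher. Signs turned on TPM for Lag3 (-0.15 in APP/PS1 and -0.023 in Cx43 cKO, both against WT), Sirpa (-0.042, Cx43 cKO against WT), Gja1 (-0.14, APP/PS1 against WT), Cd22 (0.15) and Siglech (0.0037), the last pair in Cx43 cKO against APP/PS1. With GC and length offsets, Mag was at 0.047 in APP/PS1 against WT. The cause was not tested. Over the 10 receptors and all alternatives except leaving out a library, 381 values kept their call or lack of one, 18 gained and 16 lost the call, and 5 turned sign with a call on at least 1 side. On leaving out a library, 262 kept it, 1 gained and 7 lost it. The share of calls that were higher in APP/PS1 against WT was 45.7% with TMM, 29.5% with library totals and 14.7% on TPM, and in Cx43 cKO against WT 51.9%, 30.4% and 19.9%. In Cx43 cKO against APP/PS1 it was 49.6%, 54.8% and 75.3%.

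Libraries with the same replicate number correlated in their deviations from the genotype mean (mean r 0.192, lowest 0.0549, 9 pairs over 10813 genes; -0.0954 for 18 pairs of different number), and each correlated best with its own number in 18 of 18 cases, a hint from the data and not from the labels. Since not every pair exceeded 0.1, the numbers were not used as pairs. With the replicate block, 2 receptors rather than 1 were called lower in Cx43 cKO against APP/PS1, the added one being Lag3 (-0.07, edgeR adjusted p 0.000891), also with the block and the GC and length offsets together (2 receptors, Lag3 at -0.10, adjusted p 2.95e-06; 2.95e-06 to 0.768 over 23 alternatives). Sirpa passed the threshold in APP/PS1 against WT with the block (-0.02, edgeR adjusted p 0.00858; 3.96e-08 to 0.994 over 23 alternatives), was at 0.016 (adjusted p 0.0147) with the block and offsets, and Mag was then at 0.047. All genes called rose from 8670 to 9319, 8085 to 8851 and 7010 to 7934.

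Of the related lists, the inhibitory signalling genes called lower in APP/PS1 against WT went from 9 to 5 with the DESeq2 Wald test or the GC and length offsets, and in Cx43 cKO against WT from 4 to 8 with library totals. Ligands and sialic acid enzymes called higher in APP/PS1 against WT went from 8 to 3 with library totals and to 1 on TPM.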
